A study of Homo sapiens with 2 samples.

Results

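The ER-resident selenoproteins SELENOF, SELENOI, SELENOK, SELENOM, SELENON, SELENOS and SELENOT were taken by symbol from the protein-coding rows of a ribosome profiling count table, 7 genes of 19994. All 7 symbols were found, each on 1 row. Their place in the ER is textbook knowledge that counts do not measure, and SELENOI is also placed in the Golgi. In ribosome profiling, the stretches of mRNA that lie under a ribosome survive nuclease digestion and are sequenced, so a gene's count follows the ribosomes on its mRNA. The genes were chosen by their function and by the ratio of pooled counts of a list of 25 selenoproteins in the same 2 libraries, so their ratios are a description and not a test.

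Both libraries came from wild-type HEK293T cells, a readily transfected line of human embryonic kidney. Cells of the first culture received pEGFP-mCherry-T2A-EGFP-151TCG, a fluorescent reporter whose EGFP carries a TCG codon. Cells of the second culture did not. Both cultures were transfected with the plasmid for TetRS, a chimeric pyrrolysyl-tRNA synthetase variant, with the cassettes 12*(U6-CM15CGA) for its tRNA, and both were grown with the compound TetBu. Expression lasted 30 h, and cycloheximide at 0.1 mg/mL was given for 1 min before collection. Each group had 1 library of 1 culture of transfected cells, so no difference below has a replicate check and no p-value is given. As the tRNA was present in both, the comparison concerns the reporter plasmid. Its presence cannot be told apart from other differences between the cultures or their libraries.

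Selenoproteins carry selenocysteine, which is read in at a UGA codon that otherwise ends translation. Reading it needs a stem-loop in the mRNA called SECIS, its binding protein SECISBP2, the elongation factor EEFSEC and a dedicated tRNA, which is first charged with serine by SARS1. In the ER, selenoproteins take part in glycoprotein folding, removal of misfolded proteins, calcium handling and lipid synthesis. The counts were given per gene, so footprints before and after the UGA codon were not told apart here.

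The libraries held 2519301 counts with the reporter against 3151403 without it, of which 346240 and 307768 were protein-coding. These were 13.7% and 9.77% of counts, and whether all of them came from ribosome footprints was not tested. The reporter row had 271843 counts against 399, in the direction of the titles. TetRS, from the plasmid that both received, had 30286 against 59723. Mitochondrial rRNA took 44.8% against 45.4% of counts, while miRNA genes took 12.5% against 30.4%, so the libraries differed in make-up. The 8 genes taken as markers of the HEK293 line had 344 counts against 263. All 8 were detected, 4 of them with at least 20 summed counts. Markers of other cell types were sparse, with fewer counts with the reporter than without it. Leukocyte markers summed to 5 against 20 counts, with 3 of the 7 at 0 in both, among them PTPRC and CD3E. CORO1A alone gave 1 against 14 of these counts. Without it the log2 ratio of the list, relative to all coding counts, was -0.75 (-3.02 to 1.32). Fibroblast markers had 19 against 56, hepatocyte markers 1 against 25 and erythroid markers 0 against 3. Their part in the values below was not tested.

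Promoters are shown because genes of the ER are often controlled by the ER stress element, in which the letters CCAAT and CCACG stand 9 bases apart. RefSeq promoters (GRCh38.p14) were found for 6 of the 7 genes, all but SELENOM. Those printed are the 3 whose RefSeq start lay within 30 bases of the 5′ end listed in the count table. Each line holds the 250 bases before that start, 5′ to 3′ on the gene's strand. Capitals mark CCAAT and CCACG on either strand (ATTGG and CGTGG on the opposite strand). SELENOS lies at chr15:101277486-101277735 on the minus strand, SELENOK at chr3:53891860-53892109 on the minus strand and SELENON at chr1:25799943-25800192 on the plus strand.
SELENOS: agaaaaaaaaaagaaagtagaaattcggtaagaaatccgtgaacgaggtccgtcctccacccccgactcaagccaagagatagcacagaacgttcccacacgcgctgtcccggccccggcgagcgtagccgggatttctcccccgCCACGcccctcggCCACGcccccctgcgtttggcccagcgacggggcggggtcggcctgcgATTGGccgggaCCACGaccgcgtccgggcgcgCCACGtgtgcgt
SELENOK: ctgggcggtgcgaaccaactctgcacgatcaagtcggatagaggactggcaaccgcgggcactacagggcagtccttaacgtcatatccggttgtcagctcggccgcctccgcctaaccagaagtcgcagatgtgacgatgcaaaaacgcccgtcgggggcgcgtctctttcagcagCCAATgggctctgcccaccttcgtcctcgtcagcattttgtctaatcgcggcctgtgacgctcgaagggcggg
SELENON: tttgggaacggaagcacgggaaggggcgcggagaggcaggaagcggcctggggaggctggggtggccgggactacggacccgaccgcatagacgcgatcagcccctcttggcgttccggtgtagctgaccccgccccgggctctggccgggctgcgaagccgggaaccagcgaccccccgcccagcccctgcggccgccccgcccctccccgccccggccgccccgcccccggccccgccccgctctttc
The SELENOS window held CCAAT 1 time and CCACG 4 times, that of SELENOK held CCAAT 1 time, and that of SELENON held neither. Of the 6 genes, 4 had CCAAT and 3 had CCACG within the 250 bases, against 34.8% and 39.2% of 15229 coding promoters. The 3 genes with both were SELENOF, SELENOI and SELENOS, against 13.03% of promoters. For SELENOF and SELENOI the RefSeq start lay more than 30 bases from the listed 5′ end. The full element, with exactly 9 bases between the CCAAT and the CCACG, was in none of the 6 and in 0.118% of all. The letters TGACGTGG, which overlap CCACG on the opposite strand, and TGATGNAA, a form of the ATF4 site, were in none of the 6, against 0.716% and 2.22% of all. GGGCGG, the GC box, was in 5 of the 6 and in 57.0% of all. These matches are letters in a window and not binding sites.

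Summed over the 7 genes, ER selenoproteins had more footprints in the library with the reporter. The pool held 315 counts with the reporter (exact Poisson interval at 95%, 281.2 to 351.8) and 157 without it (133.4 to 183.6). Per 100000 coding counts this was 91.0 against 51.0. Set against all coding counts, the pool was 1.78-fold higher, a log2 ratio of 0.83 (0.55 to 1.12). This interval is the exact Clopper-Pearson interval at 95%. Like every interval below, it covers counting error only and takes each read as an independent molecule, which PCR copies without molecular identifiers are not. A ratio here always means scaled counts with the reporter over those without it, and a log2 ratio of 0 is that of all coding counts together. A difference in the amount of an mRNA and one in ribosomes per mRNA cannot be told apart without an RNA library, nor can fewer cells of a kind and less RNA per cell. With total counts as the denominator every log2 ratio is 0.49 higher, the pool is at 1.33, and negative values smaller than that shift in size turn positive.

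No gene of the 7 carried the pool alone. With each left out in turn, the pooled log2 ratio stayed between 0.73, without SELENOT, and 1.03, without SELENOF. All 7 had a ratio above 0, as did 51.0% of the 6296 coding genes with at least 20 summed counts. Their median log2 ratio was 1.00, against 0.02 over those 6296 genes, and ranged from 0.50 to 1.47. The interval lay above 0 for 5 of the 7, against 11.2% of coding genes. It did so for 3 of the 7 without mitochondrially encoded genes in the denominator, where those of SELENOF and SELENOI also included 0, and for 3 with the reporter library thinned, where those of SELENOF and SELENOM did. It did so for 6 with DESeq2 size factors, against 14.6% of coding genes, and for all 7 with total counts, against 32.1%. Without mitochondrially encoded genes in the denominator the share of coding genes was 9.64%. A rule of at least 2-fold with the interval above 0 took 3 of the 7 as higher and none as lower, against 5.99% of coding genes as higher and 7.27% as lower. The 2-fold rule took between 1 and 6 of the 7 under other scalings of the libraries. These shares describe genes that were chosen with this contrast in view. SELENOM lay just inside the 2-fold rule at 1.01 and SELENON just outside it at 1.00. All 7 passed the minimum of 20 summed counts, which uses the sum of both libraries.

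**Figure D1:**
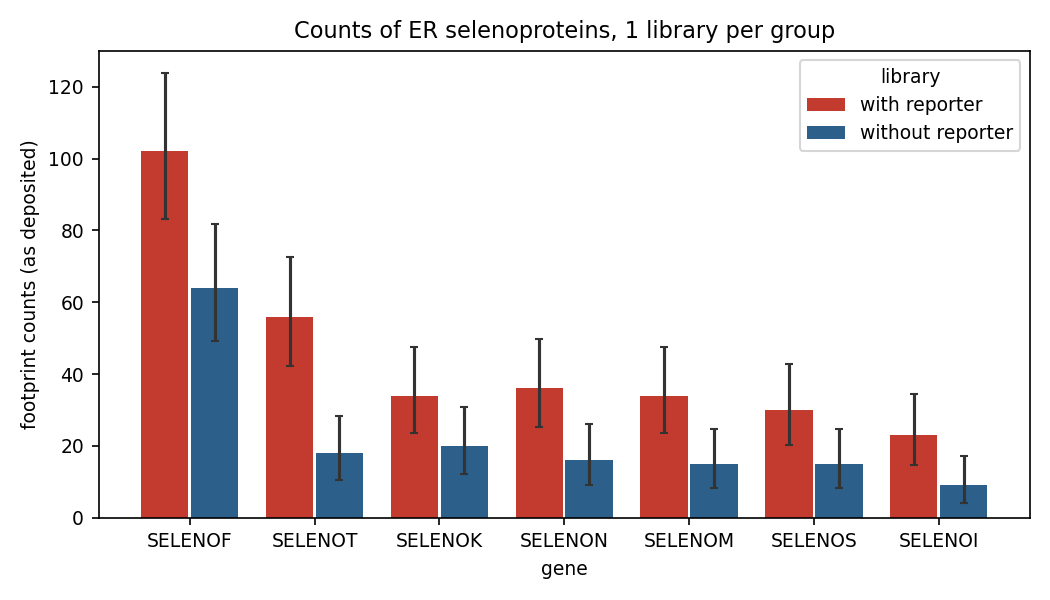
Footprint counts as deposited (y axis) for each ER selenoprotein (x axis), with the library with the reporter in red on the left of each pair and the library without it in blue. Bars are single libraries and error bars are exact Poisson intervals at 95%. Each of the 7 genes had more counts with the reporter, from 102 against 64 for SELENOF to 23 against 9 for SELENOI.

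The thioredoxin-like members held both the lowest and the highest ratio of the 7. SELENOF, which binds the glycoprotein folding sensor UGGT1, was the most counted (chromosome 1, 86862445 to 86914424), with 102 counts with the reporter against 64 without it. Its log2 ratio of 0.50 (0.04 to 0.98) was the lowest of the 7. SELENOT, an ER membrane oxidoreductase linked to redox balance and calcium, had 56 counts against 18 (chromosome 3, 150602875 to 150630436) and the highest ratio, at 1.47 (0.68 to 2.32). The difference of these log2 ratios, SELENOT minus SELENOF, was 0.97 (0.03 to 1.94). That pair was chosen as the extremes after their values were seen. SELENOM, a small protein of the ER lumen, had 34 against 15 (chromosome 22, 31104772 to 31120069), at 1.01 (0.10 to 1.99). Together the 3 genes had 192 counts against 97, a log2 ratio of 0.82 (0.46 to 1.18).

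The pair that works with the machinery of ER-associated degradation had intervals that include 0. SELENOK and SELENOS are small ER membrane proteins that bind derlins and the ATPase VCP, and SELENOK also acts with ZDHHC6 in palmitoylation of the IP3 receptor. SELENOK had 34 counts with the reporter against 20 without it (chromosome 3, 53884417 to 53891885), at 0.60 (-0.24 to 1.47). SELENOS had 30 against 15 (chromosome 15, 101270817 to 101277500), at 0.83 (-0.11 to 1.83). Relative to all coding counts, a difference in either gene alone was not detectable at this depth. Pooled, the pair had 64 against 35 counts, at 0.70 (0.08 to 1.34). With total counts as the denominator the single intervals lay above 0, at 0.25 to 1.96 for SELENOK and 0.38 to 2.32 for SELENOS. With DESeq2 size factors only that of SELENOS did, at 0.004 to 1.94.

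SELENON and SELENOI have other roles. SELENON senses ER calcium and acts on the calcium pump ATP2A2, and its loss causes a congenital muscle disease. It had 36 counts against 16 (chromosome 1, 25800193 to 25818221), at 1.00 (0.11 to 1.95). SELENOI transfers phosphoethanolamine to make phosphatidylethanolamine and its ether forms, and it is no thioredoxin-like enzyme. It had the fewest counts, 23 against 9 (chromosome 2, 26308547 to 26395885), at 1.18 (0.02 to 2.48). The lower bound lay close to 0. Pooled, both genes had 59 against 25 counts, at 1.07 (0.37 to 1.81).

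Against the summed counts of the other 6, no member stood apart beyond counting error. The difference of log2 ratios was lowest for SELENOF, at -0.52 (-1.12 to 0.08), and highest for SELENOT, at 0.74 (-0.12 to 1.65). The intervals of the remaining 5 also included 0. SELENOF made up 32.4% of the pool with the reporter and 40.8% without it, and SELENOT 17.8% against 11.5%.

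Levels per length were compared on the deposited RPKM values, which use the listed gene length of 2055 to 8489 bases. Lengths of the coding sequences were not used, so the order is one of counts per listed base and not per translated base. SELENOF was highest in both libraries, at 16.1 RPKM with the reporter (13.2 to 19.6) and 10.5 without it (8.10 to 13.4). In the library with the reporter SELENOK followed at 5.76 (3.99 to 8.05), then SELENOT at 4.75 (3.59 to 6.17), SELENOM at 3.71 (2.57 to 5.19), SELENON at 2.85 (1.99 to 3.94) and SELENOS at 2.78 (1.87 to 3.97). SELENOI was lowest, at 0.943 RPKM (0.598 to 1.41). Per listed base, SELENOF and SELENOI thus stood apart from their neighbours in that library, while the intervals of the neighbours between them overlapped. Without the reporter the order was SELENOK at 3.52, SELENOM at 1.70, SELENOT at 1.59, SELENOS at 1.44, SELENON at 1.32 and SELENOI at 0.384 RPKM. The intervals of SELENOK (2.15 to 5.44) and SELENOM (0.953 to 2.81) overlapped there, while those of SELENOI (0.175 to 0.728) and SELENON (0.752 to 2.14) did not. The median coding gene with at least 20 counts was at 1.42 RPKM with the reporter and 1.33 without it. On this measure SELENOI lay below the middle of those genes in both libraries.

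Rows that could share reads with the members were empty or nearly so, except SERP1. No small RNA gene lay in a member's locus. Of 6 rows that overlap one, only SERP1 had counts. SERP1, an ER stress protein on the opposite strand, overlaps the first 354 bases of the listed SELENOT locus. It had 33 counts against 23, at 0.35 (-0.46 to 1.19). Whether counting used strand is not stated for these counts, so SELENOT and SERP1 may share reads there. Whether reads that fall on more than 1 row were left out was not tested, so a row at 0 does not exclude shared reads. Of 5 pseudogene rows named for SELENOK or SELENOT, SELENOTP1 had 1 count with the reporter and the others had 0.

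**Figure D2:**
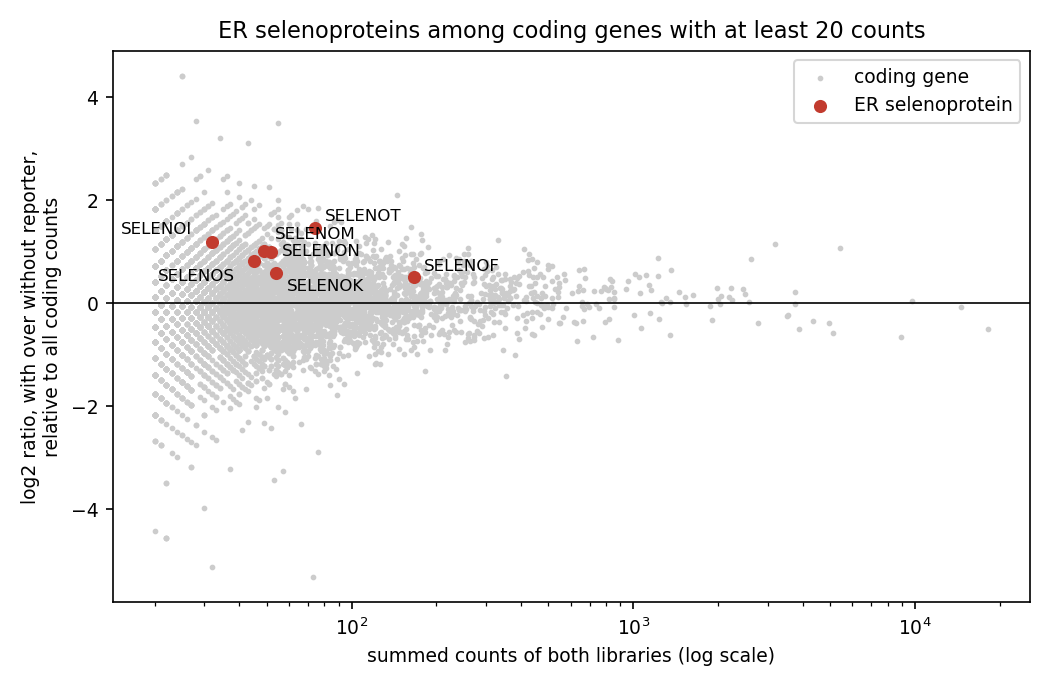
Log2 ratio with over without the reporter, relative to all coding counts (y axis), against the summed counts of both libraries on a log scale (x axis), for coding genes with at least 20 counts and a count in each library (grey). The 7 ER selenoproteins (red) lie between 0.50 and 1.47, in the upper part of a wide cloud of genes with similar counts.

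Single genes of such low counts spread widely. There were 3924 coding genes with 32 to 166 summed counts, the range of the members, and their median log2 ratio was 0.02. Of these, 21.5% had a ratio at or above that of SELENOF, the lowest member, and 9.73% had one at or above that of the pool. Within the members' range of listed length as well, 2518 genes had a median of 0.05. SELENOT exceeded 98.2% of the 3924 genes, SELENOI 96.3%, SELENOM 93.6%, SELENON 93.3%, SELENOS 89.2%, SELENOK 82.9% and SELENOF 78.5%. Among 392 other coding genes with at least 200 counts, 18 lay within 0.1 of the pool's log2 ratio. The nearest 3 were GUK1 at 0.84, SMC1A at 0.85 and NDUFA4 at 0.81, where likeness is the distance in this ratio over 2 libraries.

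The other selenoproteins spread over a wider range of ratios, and their pool rested on GPX4. The 18 genes had 649 counts with the reporter against 424 without it, a log2 ratio of 0.44 (0.27 to 0.62). GPX4, which reduces lipid peroxides in membranes, gave 292 and 133 of these, at 0.96 (0.66 to 1.27). Without it the pool was at 0.12 (-0.10 to 0.35). Of the 7 genes with at least 20 summed counts, 5 were above 0 and 2 below. MSRB1, which repairs oxidised methionine and belongs to the cytosol and nucleus, had 43 counts against 8, at 2.26 (1.15 to 3.56). TXNRD3, a thioredoxin and glutathione reductase, had 21 against 4, at 2.22 (0.65 to 4.22). These were the only 2 of the 7 that the 2-fold rule took as higher.

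The selenophosphate synthetase SEPHS2 had 167 counts against 131, at 0.18 (-0.16 to 0.52). Cytosolic GPX1 was at 0.04 (-0.68 to 0.77), with 37 against 32 counts. TXNRD1, the cytosolic thioredoxin reductase, was at -0.26 (-0.87 to 0.35), with 46 against 49. SELENOW was lowest, with 21 against 32, at -0.78 (-1.65 to 0.06). None of these 4 intervals excluded 0. The remaining 11 genes, among them TXNRD2, GPX3 and SELENOP, had 22 counts against 35 together, and GPX6 and DIO3 had none.

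The log2 ratio of the ER pool exceeded that of the other selenoproteins by 0.39 (0.05 to 0.73), a difference that no scaling of the libraries can alter. Its interval came close to 0 or included it in several alternatives. The difference was 0.28 (-0.07 to 0.64) without SELENOT and 0.33 (-0.01 to 0.68) with the reporter library thinned to the coding counts of the other. Without each of the other 6 ER genes in turn the interval stayed above 0, with values from 0.37 to 0.58, and without GPX4 the difference was 0.71 (0.34 to 1.08). The ER genes made up 32.7% of 964 selenoprotein counts with the reporter (exact interval 29.7 to 35.7%) and 27.0% of 581 without it (23.5 to 30.8%). These intervals overlap.

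**Figure D3:**
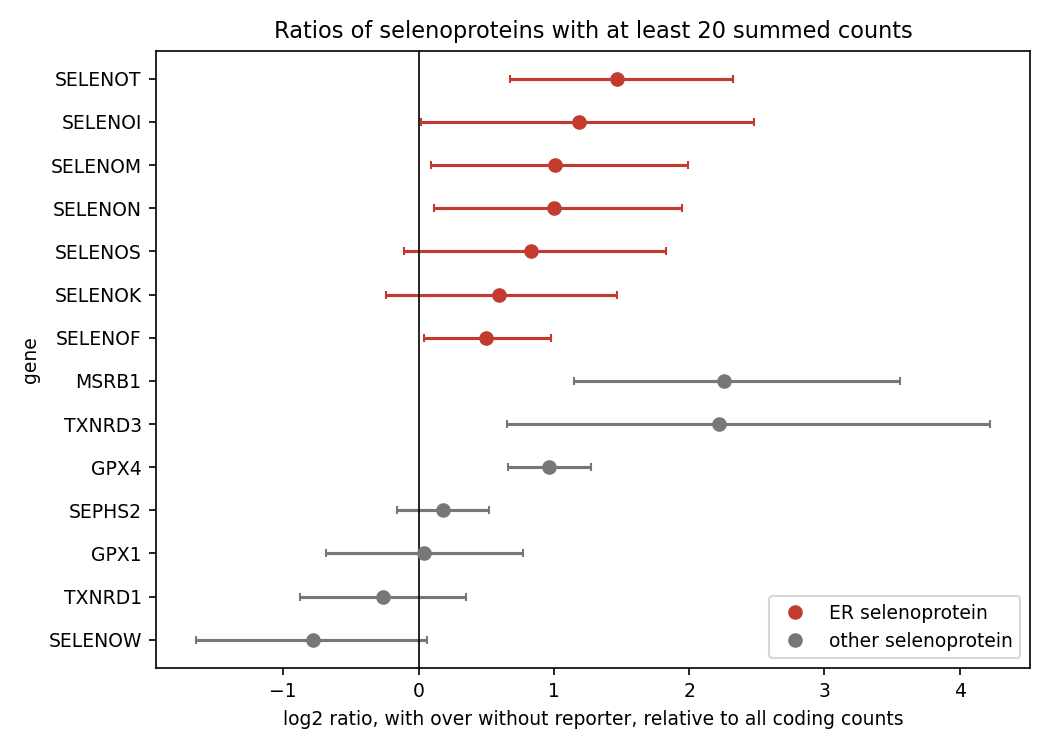
Log2 ratio with over without the reporter, relative to all coding counts (x axis), for the 7 ER selenoproteins (red) and the 7 other selenoproteins with at least 20 summed counts (grey). Bars are exact intervals at 95% of counting error from 1 library per group. The ER genes lie between 0.50 and 1.47, while the others run from -0.78 for SELENOW to 2.26 for MSRB1.

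Genes of selenocysteine synthesis and insertion had 1112 counts with the reporter against 751 without it, at 0.40 (0.26 to 0.53) over 14 genes. Of these counts 691 and 418 were those of NCL, the abundant nucleolar protein nucleolin, which also binds SECIS elements. Without NCL the list was at 0.17 (-0.04 to 0.38). Of 10 genes with at least 20 counts, 6 were above 0 and 4 below, with a median of 0.28. TRIT1, which modifies tRNAs including that for selenocysteine, was highest at 0.83 (-0.28 to 2.02). RPL30, a ribosomal protein that also binds SECIS elements, was the only member past the 2-fold rule, as lower, with 13 against 24 counts at -1.05 (-2.15 to -0.02). The ER pool lay above this list by 0.44 (0.12 to 0.76).

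Lists of partner processes of the ER selenoproteins had lower pooled ratios. ER-associated degradation, the process of SELENOK and SELENOS, had 724 counts with the reporter against 712 without it, at -0.15 (-0.30 to 0.01), but at 0.35 under total counts. Without NPLOC4, its most counted gene, the list was at -0.17 (-0.33 to -0.004). Of its 21 measured genes 8 were above 0 and 13 below. The ubiquitin ligase SYVN1 had 8 against 35 counts, at -2.30 (-3.62 to -1.17), and the lectin OS9 had 22 against 67, at -1.78 (-2.54 to -1.06). The derlin gene DERL1 had 22 counts against 0, with 2.28 as the lower bound of its log2 ratio. It was 6.52-fold higher when the 0 is taken as 3 counts in that library. The ER pool exceeded the list by 0.98 (0.66 to 1.30).

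Glycoprotein folding, the process of SELENOF, was at 0.33 (0.22 to 0.43) over 12 genes, with 1735 against 1231 counts. The chaperone CALR alone gave 871 against 496 of them, at 0.64 (0.48 to 0.80), and without it the list was at 0.06 (-0.08 to 0.21). MCFD2, a cargo receptor subunit, was lowest, with 11 against 36 counts, at -1.88 (-3.003 to -0.87). Of the 12 genes 6 were above 0 and 6 below. The ER pool exceeded the list by 0.51 (0.21 to 0.81).

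Enzymes of oxidative folding in the ER, which share the thioredoxin fold with several members, were at 0.29 (0.18 to 0.40), with 1630 against 1188 counts. Of 15 measured genes 10 were above 0 and 5 below. The 2-fold rule took the membrane thioredoxin TMX4 at 2.03 (0.60 to 3.78) and the lumenal ERP29 at 1.83 (0.50 to 3.41) as higher. It took ERP44 at -1.31 (-2.05 to -0.60) and, at the threshold itself with 18 counts against 32, DNAJC10 as lower. The ER pool exceeded the list by 0.55 (0.25 to 0.85).

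Lipid synthesis around SELENOI was at 0.40 (0.13 to 0.67), with 291 against 196 counts over 15 genes. PTDSS2, a phosphatidylserine synthase, had 44 counts against 11, at 1.83 (0.85 to 2.93), and AGPS, an enzyme of ether lipid synthesis, had 17 against 5, at 1.60 (0.10 to 3.39). Of the 9 measured genes 6 were above 0, and FAR1, which makes fatty alcohols for ether lipids, was lowest at -0.34 (-1.41 to 0.71). Here the excess of the ER pool was 0.43 (0.04 to 0.83). Without PTDSS1, its most counted gene with 68 counts against 58, the lipid list was at 0.52 (0.21 to 0.84). The excess over the list is then smaller, and its interval was not computed.

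Calcium handling and palmitoylation, the processes of SELENON and SELENOK, were at -0.15 (-0.40 to 0.10), or 0.34 under total counts, with 268 against 265 counts. Without ATP2A2, the most counted gene, this list was at -0.17 (-0.51 to 0.17). ITPR2, an IP3 receptor, was highest at 0.57 (-0.72 to 1.94), and the calcium sensor STIM1 was lower by the rule, with 9 against 21 counts at -1.39 (-2.70 to -0.20). ER chaperones and sensors of the unfolded protein response were at -0.06 (-0.19 to 0.07), or 0.43 under total counts, with 1062 against 985 counts. Without HSP90B1, their most counted gene, they were at -0.16 (-0.31 to -0.01). Their extremes were the stress sensor ATF6 at 0.58 (-0.13 to 1.31) and the cochaperone DNAJC3 at -0.98 (-2.44 to 0.38), and none of the 13 measured genes passed the 2-fold rule. Genes of the translocon and of glycosylation at the ER membrane were at -0.02 (-0.13 to 0.10), or 0.47 under total counts. Without RPN2, their most counted gene, they were at -0.15 (-0.28 to -0.02). SRPRB, a subunit of the receptor for the signal recognition particle, was at 1.15 (0.33 to 2.03), and STT3A, a catalytic subunit of oligosaccharyltransferase, at -1.31 (-1.79 to -0.85). The ER pool exceeded these lists by 0.99 (0.61 to 1.37), 0.90 (0.59 to 1.21) and 0.85 (0.55 to 1.16). Since the members were chosen with this contrast known, these differences describe the 2 libraries and test nothing.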

How the data were processed

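Ribosome profiling of HEK293T cells gave 2 libraries, 1 per group, mapped by sample title. The deposited table held whole-number counts per gene. TopHat2 2.0.12 and HTSeq 0.9.1 and the builds GRCh37 and hg19 are listed, with no role, per the submitters' processing notes. Coordinates in the files matched GRCh38, since all 7 members and 19059 of 19061 coding symbols overlapped their RefSeq GRCh38.p14 locus. The RPKM values deposited by the authors equalled count over listed length and over a library size of 2873483 with the reporter against 2762965 without it.

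The design kept all coding counts as the denominator for genes and pools, so that both share a zero. Exact Clopper-Pearson, Poisson and conditional odds-ratio intervals at 95% were computed with Python 3.11.15, scipy 1.17.1, numpy 2.4.6 and pandas 2.3.3, with a minimum of 20 summed counts and a 2-fold threshold. The steps were tested on simulated data. Alternatives used edgeR 4.0.16 TMM, DESeq2 1.42.0 size factors (R 4.3.3), total counts, thinning, other minimums and folds, RPKM and left-out genes. Named were all members, other selenoproteins with at least 20 counts, the extremes of each list and genes past the rule. The most counted gene of a list was also named where it was left out. Members, lists and this naming rule were chosen with earlier results of these data known. Protein and coding sequences were not used here.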

Additional observations from a re-analysis of the deposited data

Results flagged for a closer look

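The reporter row had 399 counts in the library without the reporter plasmid, against the 3 counts taken here in place of a 0. It was picked out as signal of a sequence absent from that culture's transfection. No value of the ER selenoproteins uses this row, and its source was not tested.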

How the results depend on the processing

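No paired analysis was possible because each group had 1 library. Of 114 alternative values of the pools, members and lists, 97 stayed within the interval of the value reported, 17 moved beyond it and none reversed the sign of a value whose interval excluded 0. All 35 alternative values of single members were above 0. The ER pool ranged from 0.73 to 1.33 over 15 alternatives. Total counts added 0.49 to every log2 ratio, because the coding share of counts was 13.7% with the reporter and 9.77% without it. They put the ER pool at 1.33, SELENOF at 1.00, the other selenoproteins at 0.94, selenocysteine insertion at 0.89, lipid synthesis at 0.89, glycoprotein folding at 0.82, oxidative folding at 0.78, the translocon list at 0.47, chaperones at 0.43, ER-associated degradation at 0.35 and calcium handling at 0.34. The direction of the last 4 lists therefore rests on the scaling. DESeq2 size factors, which added 0.11, put glycoprotein folding at 0.44 and oxidative folding at 0.40. Leaving out GPX4 put the other selenoproteins at 0.12. Leaving out the most counted gene, chosen after seeing the data as were the differences without GPX4, each ER gene or MSRB1 and TXNRD3, put selenocysteine insertion at 0.17, glycoprotein folding at 0.063 and the translocon list at -0.15. The members taken as higher by the 2-fold rule numbered 3 as reported, 4 with TMM, 4 with DESeq2 size factors, 6 with total counts and 1 without mitochondrially encoded genes in the denominator, where percentages of coding genes were 6.69%, 8.01%, 20.0% and 5.11% under these 4 alternatives. The 377 coding genes higher and 458 lower became 119 and 106 at a minimum of 50 counts, 25 and 8 at 100, and 641 and 898 with any count. They became 132 and 185 at 3-fold, and 1260 and 125 with total counts. At 1.5-fold 594 were higher, and at a minimum of 10 counts 690 were lower. Depth limits the single genes, of which SELENOI had 32 counts in all.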
